A study of Mus musculus with 42 samples.

Results

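The transcripts described here encode the core machinery of mitotic entry and exit: the kinases Plk1, Aurka, Aurkb and Cdk1, the Aurora A activator Tpx2, the B-type cyclins Ccnb1 and Ccnb2, the phosphatases Cdc25b and Cdc25c, and the anaphase activator Cdc20. Members were taken by gene symbol from the platform annotation. Of the 10 symbols, 9 had probe sets, 17 probe sets in all out of the 45101 on the array, and all 9 genes were among the 12363 tested. Ccnb1 had no probe set under that symbol in the annotation used and is not analysed here.

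The study measured RNA of 21 mouse pre-B cell lines on 42 Affymetrix arrays, with an irradiated and an untreated array for each line. Every line came from bone marrow of a mouse aged 3 to 5 weeks that carried the Em-Bcl2 transgene, an anti-apoptotic gene, and had been transformed with the v-abl oncogene by a pMSCV retrovirus. WT lines therefore carry Bcl2 and v-abl as the mutant lines do. The 7 genotypes, with 3 lines each, were Atm-/- (loss of the kinase that starts signalling from DNA breaks), Scid (a defect in the end-joining kinase DNA-PKcs), Mre11A/A (reduced function of Mre11, a nuclease that binds broken ends), 53bp1-/-, H2ax-/- and Mdc1-/- (loss of factors that mark or bind chromatin beside a break), and WT. Irradiated cells had received 1 Gy of gamma rays and were collected 2 h later; untreated cells were mock treated for the same 2 h. The study asked how each line responds to radiation, and how the response of each mutant compares with WT and with the other mutants. The labels call the 3 samples of a group biological replicates but do not say whether lines of a genotype came from separate mice. Each standard error (SE) and p-value of a genotype draws on a spread shared over all 21 lines, not on its own 3 lines alone.

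Cyclin B bound to Cdk1 drives cells from G2 into mitosis. Wee1-type kinases hold Cdk1 inactive by phosphorylation, and Cdc25 phosphatases release it. Aurora A, aided by its partners Bora and Tpx2, activates Plk1, which in turn promotes Cdk1 activation and spindle assembly; Aurora B corrects chromosome attachments, and Cdc20 lets the anaphase-promoting complex destroy cyclin B. Transcripts of these genes accumulate in G2 in dividing cells and are known to be lowered after DNA damage in other systems, where a repressor complex binds a short element near the transcription start, the cell cycle genes homology region, next to CCAAT boxes.

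Promoter letters are shown because such elements have been described for several of these genes. RefSeq promoter windows of build GRCm38.p6, 250 bases before to 50 bases after the start, were matched by symbol for 6 of the 9 measured genes: Plk1, Aurka, Ccnb2, Cdk1, Cdc25b and Cdc20. The stretch from 100 bases before to 50 after the start is printed for 4 of them, 5' to 3' on the strand of the gene, with 3 motifs in capitals: TTTGAA, its variant TTCGAA, and the box CCAAT, which reads ATTGG where it lies on the other strand. Plk1 (chr7:122159335-122159484, plus strand) and Aurka (chr2:172370521-172370670, minus strand) are the kinases whose radiation response differed among genotypes. Ccnb2 (chr9:70421505-70421654, minus strand) is the B-type cyclin measured, and Cdc25b (chr2:131186848-131186997, plus strand) is the gene whose untreated level differed.
Plk1: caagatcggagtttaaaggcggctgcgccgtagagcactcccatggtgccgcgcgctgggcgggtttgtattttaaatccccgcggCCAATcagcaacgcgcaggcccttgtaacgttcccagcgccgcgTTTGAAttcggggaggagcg
Aurka: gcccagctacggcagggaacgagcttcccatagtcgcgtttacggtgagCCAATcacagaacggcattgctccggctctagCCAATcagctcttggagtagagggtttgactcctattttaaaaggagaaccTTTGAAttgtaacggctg
Ccnb2: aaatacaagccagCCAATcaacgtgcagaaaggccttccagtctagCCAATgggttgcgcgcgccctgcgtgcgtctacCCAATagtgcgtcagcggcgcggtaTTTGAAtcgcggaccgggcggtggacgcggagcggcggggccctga
Cdc25b: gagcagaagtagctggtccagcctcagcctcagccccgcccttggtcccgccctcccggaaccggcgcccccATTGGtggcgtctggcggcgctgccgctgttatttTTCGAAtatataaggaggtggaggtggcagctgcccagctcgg
TTTGAA was found in 5 of the 6 matched windows and TTCGAA in that of Cdc25b, searching both strands of the whole window. CCAAT was found in all 6. Over 32851 promoter windows of the same length, 17.9% held TTTGAA, 1.56% held TTCGAA, 37.4% held CCAAT and 6.95% held TTTGAA together with CCAAT. In Plk1 and Aurka the TTTGAA lies after the transcription start, at positions 31 to 36 and 33 to 38, and in Ccnb2 a copy lies at 5 to 10. None of the arrays measured binding to these windows.

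In median signal the arrays were alike apart from a pair. The log2 ratio of 3' over 5' actin control signal, a measure of RNA quality, changed with radiation with an SD of 0.23 over the Atm-/- lines. In other genotypes that SD was 0.05 to 0.11. For Gapdh the SD was 0.04 in Atm-/- lines and 0.01 to 0.05 in the others. The median signal was 62.6 to 82.9 on 40 arrays, against 103 for irradiated WT line 4 and 116 for irradiated Atm-/- line 2. H2ax read 18.7 to 107 on the 6 H2ax-/- arrays against 8328 to 12980 in WT, Mdc1 3.52 to 176 in Mdc1-/- against 336 to 476 in WT, and the brighter Atm probe set 129 to 281 in Atm-/- against 1300 to 1756 in WT. The brighter Mre11a set was lower on all 6 Mre11A/A arrays without overlap (462 to 706 against 1322 to 1706 in WT), while the dimmer set was higher there (223 to 297 against 95.1 to 214). Of 6 Trp53bp1 sets 1 was lower on all 53bp1-/- arrays without overlap with WT, while Prkdc overlapped, an amount that checks nothing for the Scid point mutation. All 9 pre-B markers annotated here passed the filter, and their summed signal was 50231 to 89254 on irradiated and 51918 to 92468 on untreated arrays. The summed T cell, myeloid, erythroid and stromal markers reached at most 161, 686, 194 and 285 on irradiated arrays and 153, 608, 127 and 187 on untreated arrays. These sums hold only markers that passed the filter: 1 of 5 annotated T cell, 5 of 6 myeloid, 1 of 3 erythroid and 2 of 5 stromal markers. Each marker left out read at most 131, the maximum of Mpo. Of the pre-B markers, Rag1, Dntt and Pax5 were lower in the mean response of the 7 genotypes, by log2 changes of -0.87, -0.15 and -0.23. Rag1 was at -1.41 in Mdc1-/-, -1.17 in H2ax-/-, -1.15 in WT, -1.05 in Scid and -0.85 in 53bp1-/- lines, all called. The response of Cd79b was lower in Atm-/- than in WT lines (difference -0.48, adjusted p = 0.0332). The stromal marker Dcn, which read 5.51 to 87.4 over all arrays, was higher in the mean response by 0.63 (adjusted p = 0.0296). The part of these markers in the changes of the members was not tested.

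After radiation several of these transcripts were lower, with the highest counts in Mdc1-/-, Scid and H2ax-/- lines. The change of each gene is the log2 of (signal + 16) in the irradiated array minus that in the untreated array of the same line, tested with limma with the line as a block; a gene is called at an adjusted p under 0.05 (Benjamini-Hochberg over 12363 genes), and "fell" or "rose" is used only of called genes. Of the 9 genes, 5 fell in Mdc1-/- lines (Plk1, Aurka, Tpx2, Ccnb2 and Cdc25c), where 2.52% of all genes fell. Another 5 fell in Scid lines (Plk1, Aurka, Tpx2, Ccnb2 and Cdc20; 0.954% of all genes) and 4 in H2ax-/- lines (Plk1, Aurka, Tpx2 and Cdc25c; 0.93%). In 53bp1-/- lines 2 fell, Plk1 and Tpx2 (0.421% of all genes), and in WT lines 1, Tpx2 (1.8%). None fell in Atm-/- lines, where 0.809% of all genes did, or in Mre11A/A lines, where no gene of the 12363 did. At an unadjusted p under 0.05, 1872 genes passed in Atm-/- and 547 in Mre11A/A lines. No member rose in any genotype. The share of all genes that rose was 0.526% in Atm-/-, 1.72% in Scid, 0.0728% in Mre11A/A, 1.52% in 53bp1-/-, 1.05% in H2ax-/-, 3.18% in Mdc1-/- and 2% in WT lines.

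**Figure D1:**
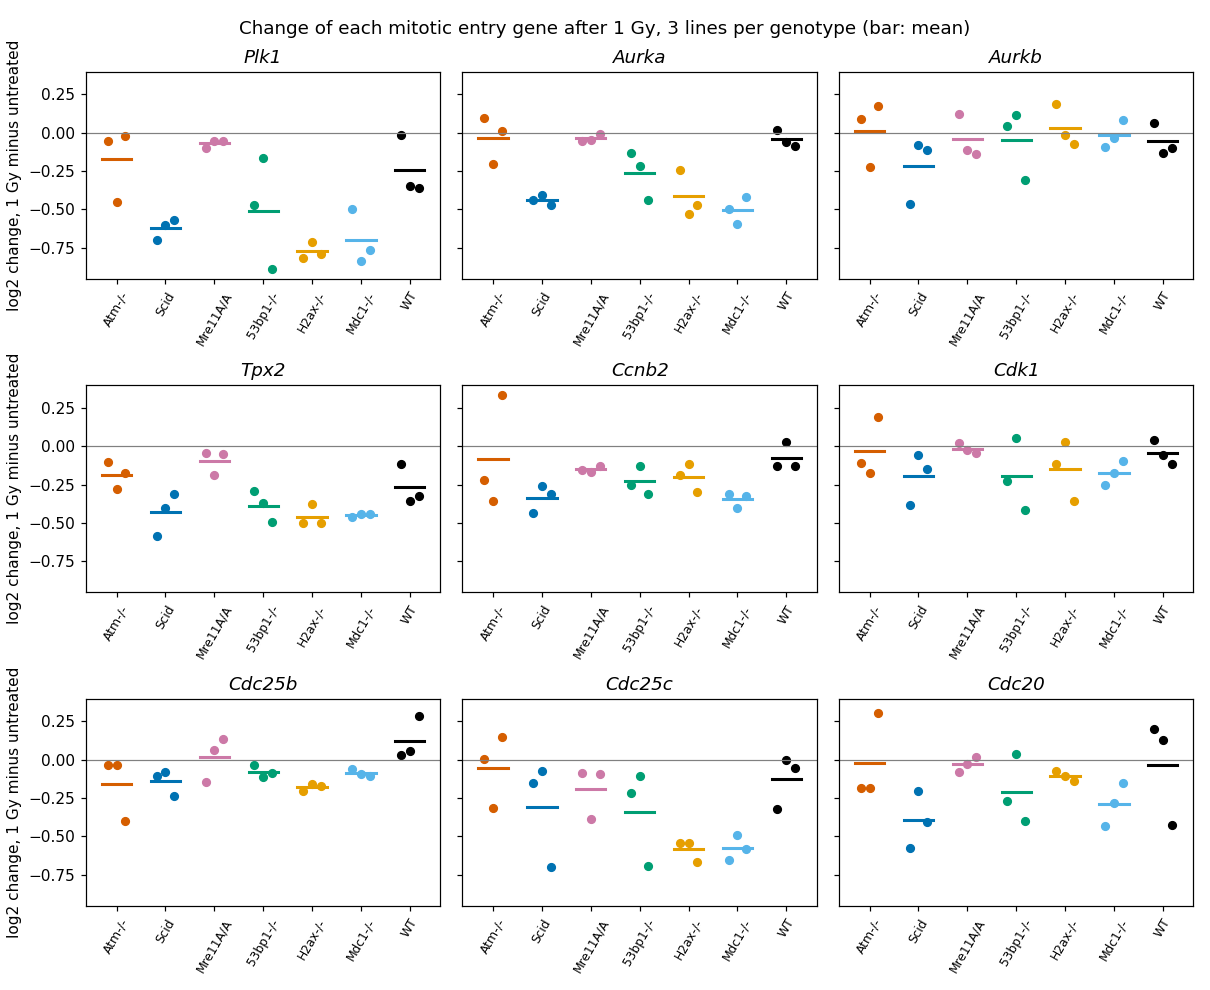
Log2 change of each of the 9 measured genes (y axis, irradiated minus untreated array of a line, on the log2(signal + 16) scale) by genotype (x axis), with a point for each of 3 lines and a bar for their mean. Plk1, Aurka and Tpx2 lie furthest below 0 in Scid, H2ax-/- and Mdc1-/- lines and near 0 in Mre11A/A lines. Genotype means of Aurkb and Cdc25b lie between -0.22 and 0.12. In Scid lines all 9 genes were lower in 3 of 3 lines.

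In bulk RNA, fewer cells in G2 or mitosis and less of a transcript per cell cannot be told apart. Without the block of line, which leaves the differences in level between lines in the error, the counts of members that fell were 1 in Scid (Tpx2), 0 in 53bp1-/-, 2 in H2ax-/- (Plk1, Tpx2), 3 in Mdc1-/- (Plk1, Aurka, Tpx2) and 0 in WT lines. In the same fit 0.00809% of all genes fell in Scid, 0% in 53bp1-/-, 0.0162% in H2ax-/-, 0.0566% in Mdc1-/- and 0.00809% in WT lines.

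Plk1 is the Polo-like kinase that triggers mitotic entry. Its probe set read 1454, 1299 and 1871 in H2ax-/- lines 1, 2 and 3 after radiation, against 2572, 2137 and 3248 in the same lines untreated. In Mdc1-/- lines it read 1661, 1494 and 1539 irradiated, against 2348, 2682 and 2624 untreated. In Scid lines the values were 1501, 1499 and 1803 irradiated, against 2446, 2287 and 2680 untreated. In these 3 genotypes each irradiated array lay below every untreated one. The same held within 53bp1-/- and within WT lines, given next. Plk1 fell by 0.77 (SE 0.10, n = 3 lines, limma adjusted p = 0.000116) on the log2 scale in H2ax-/-, by 0.70 (adjusted p = 7.1e-05) in Mdc1-/- and by 0.62 (adjusted p = 0.000575) in Scid lines. The ratios of irradiated over untreated (signal + 16) were 0.585, 0.616 and 0.649.

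Plk1 spread widely within 53bp1-/- lines, at 1759, 2090 and 1520 irradiated against 2440, 2344 and 2833 untreated. It fell there by 0.51 (adjusted p = 0.00545 with an SE of 0.10, pooled over all genotypes). The changes of single lines were -0.47, -0.16 and -0.89, a spread that the pooled SE does not show. Without line 3 the adjusted p was 0.303. WT lines read 2062, 1909 and 2016 irradiated against 2086, 2429 and 2589 untreated (lines 1, 3 and 4). WT line 1 was at -0.02, while lines 3 and 4 were at -0.34 and -0.36, and the mean of -0.24 did not pass (adjusted p = 0.235).

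In Mre11A/A lines Plk1 read 2430, 2520 and 2784 irradiated against 2607, 2613 and 2896 untreated, a mean change of -0.07 (95% interval -0.28 to 0.14), not called. Atm-/- lines read 2365, 1648 and 2519 irradiated against 2455, 2259 and 2553 untreated. Line 2, whose irradiated array had the high median signal of 116, gave -0.45, against -0.05 and -0.02 in lines 1 and 3. The mean Atm-/- change of -0.17 was not called (adjusted p = 0.424).

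**Figure D2:**
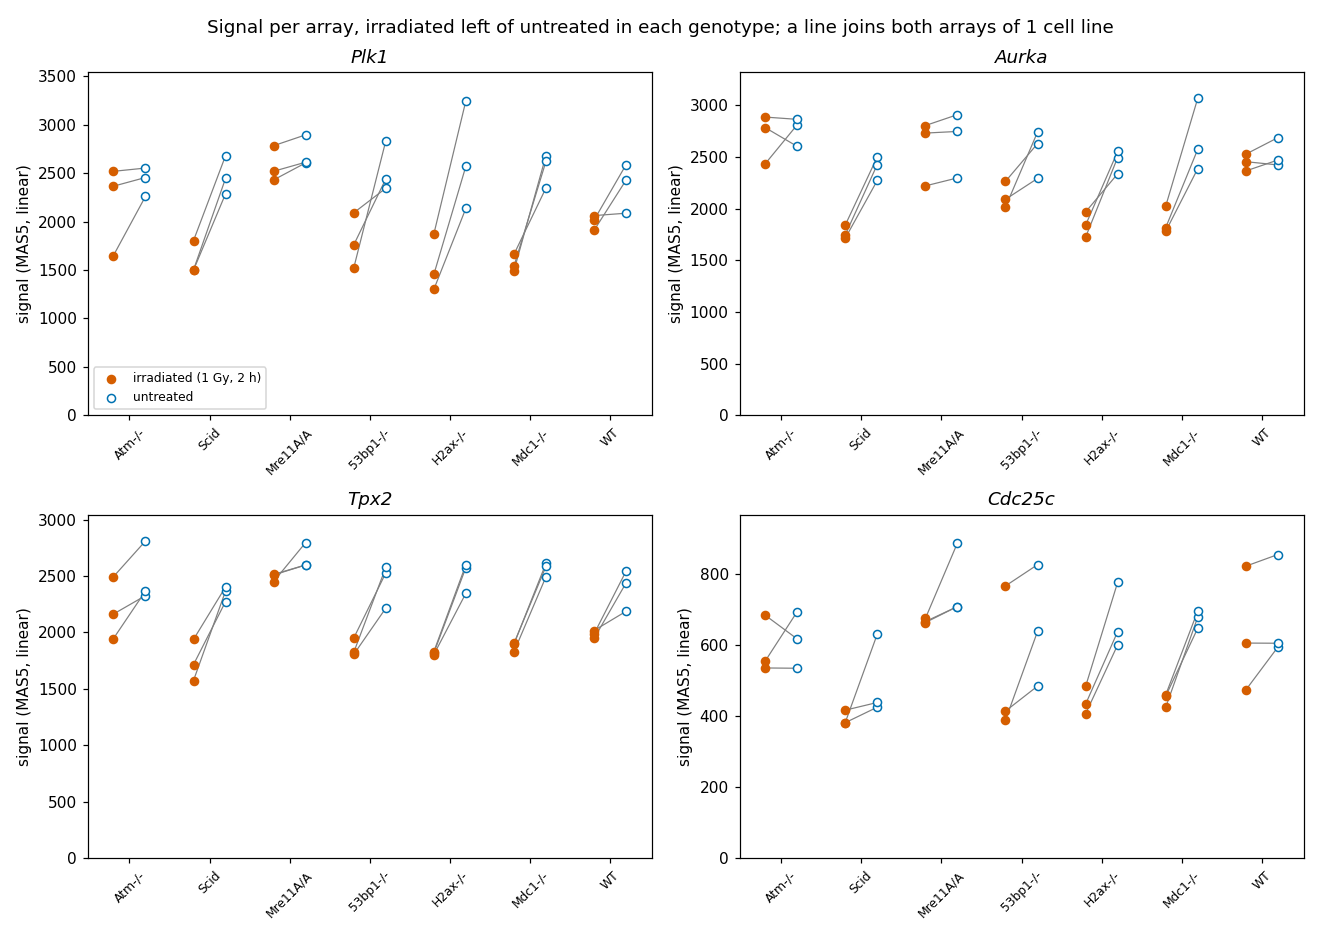
Deposited signal (y axis, linear) of Plk1, Aurka, Tpx2 and Cdc25c on each array by genotype (x axis); filled points are irradiated and open points untreated arrays, and a line joins both arrays of a cell line. For Plk1 the irradiated points of Scid, H2ax-/- and Mdc1-/- lines lie at 1299 to 1871, below every untreated point of those genotypes. Those of 53bp1-/- and WT lines also lie below every untreated point of their own genotype.

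Aurka encodes Aurora A, the kinase of the centrosome and spindle poles. In Mdc1-/- lines it read 1815, 2024 and 1779 irradiated, against 2573, 3067 and 2386 untreated. Scid lines read 1840, 1712 and 1745 irradiated, against 2500, 2272 and 2426 untreated, and H2ax-/- lines 1967, 1723 and 1839 irradiated, against 2336, 2494 and 2552 untreated. No irradiated array overlapped an untreated one within these genotypes. Aurka fell by 0.51 in Mdc1-/- (SE 0.07, adjusted p = 4.6e-05), by 0.44 in Scid (adjusted p = 0.000536) and by 0.42 in H2ax-/- lines (adjusted p = 0.00162).

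In 53bp1-/- lines Aurka read 2089, 2263 and 2014 irradiated against 2291, 2628 and 2740 untreated. The groups did not overlap, and the mean change of -0.26 just missed the threshold (SE 0.07, adjusted p = 0.0574). WT lines read 2453, 2364 and 2526 irradiated against 2422, 2469 and 2686 untreated, with overlap. The WT change was -0.04, as were those of Mre11A/A lines (2803, 2219 and 2730 irradiated against 2909, 2296 and 2746 untreated) and, at -0.03, Atm-/- lines (2784, 2432 and 2885 irradiated against 2601, 2810 and 2863 untreated). A second, dim Aurka probe set with a mean signal of 61.2 gave a mean change of -0.03 and was not called in any radiation response.

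Tpx2, which binds and activates Aurora A on the spindle, was the gene called in most genotypes, 5 of 7. It read 1818, 1804 and 1830 in H2ax-/- lines irradiated, against 2576, 2348 and 2601 untreated, and 1897, 1902 and 1828 in Mdc1-/- lines irradiated, against 2613, 2587 and 2495 untreated. In Scid lines it read 1574, 1715 and 1938 irradiated, against 2367, 2274 and 2404 untreated, and in 53bp1-/- lines 1805, 1950 and 1823 irradiated, against 2215, 2528 and 2576 untreated. All 4 genotypes showed no overlap between treatments. Tpx2 fell by 0.46 in H2ax-/- (SE 0.07, adjusted p = 0.000339), by 0.45 in Mdc1-/- (adjusted p = 9.7e-05), by 0.43 in Scid (adjusted p = 0.000442) and by 0.39 in 53bp1-/- lines (adjusted p = 0.00147; 0.0584 without line 3).

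Tpx2 was also the 1 member called in WT lines, where it fell by 0.26 (adjusted p = 0.0263 with an SE of 0.07). WT signals were 2017, 1987 and 1947 irradiated against 2188, 2545 and 2440 untreated, lower in 3 of 3 lines and without overlap. The WT call was lost without line 3 (adjusted p = 0.261), without line 4 (0.141), under quantile normalization (0.0527) and without both lines with a bright irradiated array (0.118). In Mre11A/A lines the 3 irradiated arrays (2515, 2451 and 2510) lay just below the 3 untreated ones (2599, 2797 and 2599), and the change of -0.10 was not called. The second bright Tpx2 probe set was also called lower in Scid, 53bp1-/-, H2ax-/- and Mdc1-/- lines when all kept probe sets were tested, while its other 2 sets, with mean signals of 105 and 129, were not called.

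Cdc25c is a phosphatase that activates Cdk1. In H2ax-/- lines it read 433, 406 and 483 irradiated against 637, 600 and 776 untreated. In Mdc1-/- lines it read 424, 456 and 459 irradiated against 678, 647 and 695 untreated. It fell by 0.58 in both (SE 0.13; adjusted p = 0.0118 in H2ax-/- and 0.00491 in Mdc1-/- lines), lower in 3 of 3 lines of each and without overlap. The H2ax-/- call was lost on leaving out any 1 H2ax-/- line (adjusted p = 0.109, 0.0508 and 0.159), and the Mdc1-/- call without line 1 (0.0578) or 3 (0.0557). In Scid lines Cdc25c read 381, 416 and 381 irradiated against 424, 438 and 630 untreated, and the change of -0.31, of which line 3 gave -0.70, was not called (adjusted p = 0.275). The 53bp1-/- change was -0.34, lower in 3 of 3 lines but with overlap, and was not called (adjusted p = 0.281). The Mre11A/A change was -0.19, the WT change -0.12 and the Atm-/- change -0.06. The dimmer second Cdc25c probe set was called in no single genotype, with changes of -0.43 in H2ax-/- and -0.47 in Mdc1-/- lines. In Atm-/- lines that set was higher in 3 of 3 lines, at 483 to 561 irradiated against 375 to 480 untreated without overlap, and its change of 0.26 was not called (adjusted p = 0.451).

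Ccnb2, the cyclin B2 partner of Cdk1, fell by 0.35 in Mdc1-/- (SE 0.09, adjusted p = 0.0129) and by 0.34 in Scid lines (adjusted p = 0.0296) on the log2 scale. Mdc1-/- lines read 5618, 5625 and 5479 irradiated against 6969, 7446 and 6868 untreated. Scid lines read 5074, 4883 and 5638 irradiated against 6869, 5850 and 6997 untreated. Treatments did not overlap in either genotype, yet both calls were lost without any 1 of the genotype's own lines, with adjusted p of 0.0576, 0.135 and 0.0908 for Mdc1-/- and 0.353, 0.0618 and 0.119 for Scid lines 1, 2 and 3. In the other genotypes the mean changes lay between -0.23 and -0.08 and none was called.

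Cdc20, which turns on the anaphase-promoting complex, read 9388, 10970 and 9571 in Scid lines irradiated against 13976, 12655 and 12692 untreated. It fell there by 0.40 (adjusted p = 0.0425 with an SE of 0.11), a call lost in 14 of 29 alternatives. Mdc1-/- lines read 10505, 10539 and 11519 irradiated against 14185, 12802 and 12820 untreated, without overlap, and the change of -0.29 was not called (adjusted p = 0.127). In WT lines 1 and 3 the values were 0.20 and 0.13, while line 4, with its bright irradiated array, gave -0.43.

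Cdk1, the kinase on which these regulators act, had small changes. Its mean changes were -0.20 in both Scid and 53bp1-/- lines, -0.18 in Mdc1-/-, -0.15 in H2ax-/-, and between -0.04 and -0.02 in WT, Atm-/- and Mre11A/A lines. It was called in no single genotype, and irradiated and untreated arrays overlapped in all 7. Aurkb, the kinase of the chromosomal passenger complex, was likewise called in none, with mean changes of -0.22 in Scid lines and -0.05 to 0.03 elsewhere. Cdc25b ranged from -0.18 in H2ax-/- to 0.12 in WT lines without a call. Both Aurkb probe sets were uncalled, with mean changes over the 7 genotypes of -0.05 and -0.04.

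Arrays were also compared without a test. All 3 irradiated arrays lay below all 3 untreated ones for 6 of 9 members in Mdc1-/- lines and 6 in Scid lines, where 6.5% and 3.75% of all genes did so. The counts were 5 in H2ax-/- (5.76% of all genes), 3 in 53bp1-/- (3.6%), 3 in Mre11A/A (3.72%), 2 in WT (4.6%) and 0 in Atm-/- lines (2.18%). In Mre11A/A lines the 3 genes were Tpx2, Ccnb2 and Cdc25c, with mean changes of -0.10, -0.15 and -0.19.

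Averaged over the 7 genotypes, 7 of 9 members fell, where 7.86% of all genes fell and the median change over all genes was -0.0022. Plk1 fell by 0.44 (SE 0.04, adjusted p = 7.32e-09) and was lower in 21 of 21 lines, as was Tpx2, which fell by 0.32 (SE 0.03, adjusted p = 1.56e-09). Cdc25c fell by 0.31 (adjusted p = 3.65e-05), Aurka by 0.25 (adjusted p = 2.32e-07) and Ccnb2 by 0.20 (adjusted p = 6.07e-05). Cdc20 fell by 0.16 (adjusted p = 0.00854) and Cdk1 by 0.12 (adjusted p = 0.0158). Those last calls were lost without the block of line (adjusted p = 0.0812 for Cdc20 and 0.251 for Cdk1), and that of Cdk1 also without both lines with a bright irradiated array (0.0522). Aurkb (-0.05, adjusted p = 0.425) and Cdc25b (-0.07, adjusted p = 0.126) were not called; without those 2 lines Cdc25b was (adjusted p = 0.0416). All 3 Cdc20 probe sets and both Cdc25c sets were called lower.

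The size of the fall differed among genotypes for 2 members. In a moderated F test over the 7 genotypes, Aurka (adjusted p = 0.0135) and Plk1 (adjusted p = 0.0249) were called, against 0.954% of all genes. Tpx2 (adjusted p = 0.134) and Cdc25c (0.387) were not. Neither call held without the block of line, and that of Plk1 was lost in 9 of 29 alternatives, among them leaving out any 1 Mre11A/A line (adjusted p of 0.0590 to 0.0672). For Plk1 the genotype means ran in the order H2ax-/-, Mdc1-/-, Scid, 53bp1-/-, WT, Atm-/- and Mre11A/A, from lowest to highest change. The widest gap between neighbours in that order, 53bp1-/- minus WT, was -0.27 (95% interval -0.57 to 0.03). Between pairs of mutants, a comparison added after the data were seen, the 1 called member difference among 15 pairs was Plk1 in H2ax-/- minus Mre11A/A lines, at -0.70 (95% interval -1.0 to -0.41, adjusted p over all pairs = 0.0415, 0.17% of all gene and pair tests).

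No member's response was called different from WT in any of the 6 mutants by limma, with or without the block of line. The called share over all genes in these comparisons was 2.09% for Atm-/- and at most 0.00809% for the others. The counts of genes at an unadjusted p under 0.05 were 1904 for Atm-/- and 567 to 1041 for the others. The 95% intervals of single differences are not adjusted for the number of genes tested, and several held only negative values. For Plk1 the H2ax-/- minus WT difference was -0.53 (95% interval -0.83 to -0.24, adjusted p = 0.94) and the Mdc1-/- minus WT difference -0.46 (-0.76 to -0.16). Aurka gave -0.46 for Mdc1-/- minus WT (-0.67 to -0.25, adjusted p = 0.593) and -0.39 for Scid minus WT (-0.60 to -0.19). For Atm-/- minus WT, Plk1 differed by 0.07 (-0.23 to 0.36) and Aurka by 0.01 (-0.20 to 0.22). These comparisons share the WT arrays.

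Cdkn1a, which encodes the Cdk inhibitor p21, was followed on the same arrays. It rose in 6 genotypes, by log2 changes of 2.49 in Mdc1-/-, 2.41 in 53bp1-/-, 2.03 in Scid, 1.76 in WT, 1.71 in H2ax-/- and 1.33 in Mre11A/A lines, with limma adjusted p of 0.00193 or less. The Atm-/- change of 0.33 was not called (adjusted p = 0.388). Atm-/- and Mre11A/A lines, lowest in Cdkn1a change, also had the smallest mean Plk1 changes, -0.17 and -0.07. H2ax-/- lines, next in Cdkn1a change, had the largest, -0.77. WT line 1 had a Cdkn1a change of 2.21 and a Plk1 change of -0.02, while H2ax-/- line 2, with a Cdkn1a change of 1.04 and a signal of only 460 irradiated against 216 untreated, had a Plk1 change of -0.71. Mdc1-/- line 2 had the highest Cdkn1a change, 2.99, with -0.84 for Plk1 and -0.60 for Aurka. A link between the changes of Cdkn1a and those of the members was not tested.

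**Figure D3:**
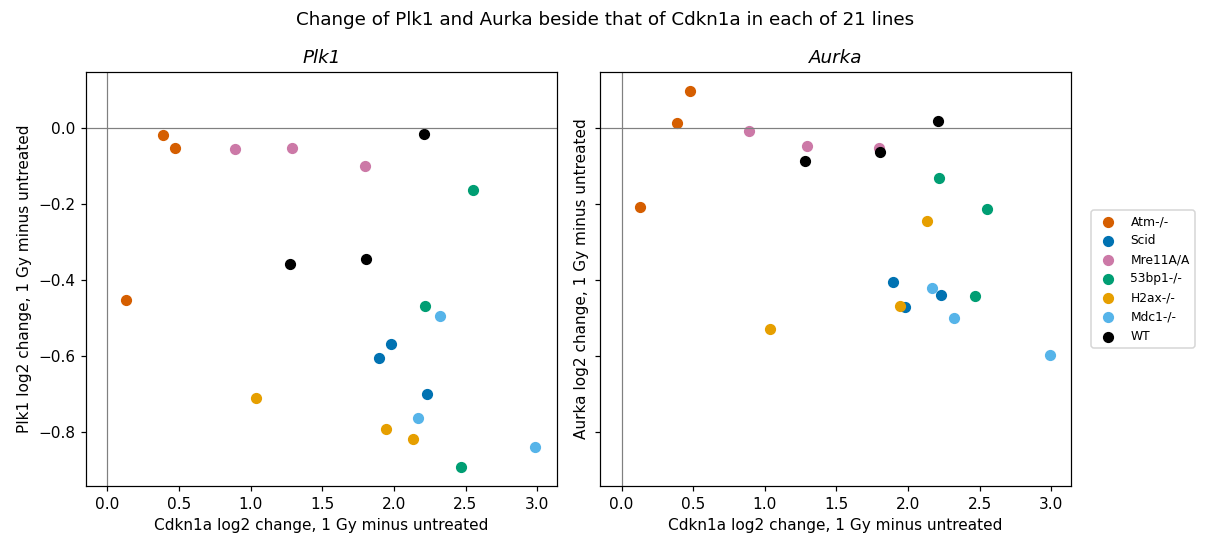
Log2 change of Plk1 (left) and Aurka (right) on the y axes against the log2 change of Cdkn1a on the x axis, with a point for each of 21 lines, coloured by genotype. Atm-/- lines sit at Cdkn1a changes of 0.13 to 0.47, WT line 1 at 2.21 with a Plk1 change of -0.02, and Mdc1-/- line 2 at the far right at 2.99.

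Within the set, the changes of the lines were most alike for Plk1, Aurka and Tpx2. Over the 21 lines Plk1 and Tpx2 had a Pearson correlation of 0.87, Plk1 and Aurka 0.87, and Aurka and Tpx2 0.80. Against the mean of the other members, Aurka (0.87), Plk1 (0.86), Tpx2 (0.79), Cdk1 (0.77), Ccnb2 (0.73), Cdc20 (0.69) and Cdc25c (0.66) followed, while Aurkb had 0.43 and Cdc25b 0.09. These are descriptions, since lines of a genotype and genes of an array share their source. By the mean change of all 9 members, line 3 of 53bp1-/- was lowest at -0.45, followed by Scid line 1 at -0.43, and Atm-/- line 3 was highest at 0.06.

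The genes whose changes over the 21 lines were most like the members' mean were named by rank. Smc4, a condensin subunit, had a Pearson correlation of 0.89, but its mean change was near 0 at -0.0014 and it ranged only between -0.19 and 0.20. Cdca2 (0.88), a chromatin phosphatase-targeting protein, Kif20b (0.85) and Kif20a (0.80), kinesins of cell division, and Cenpe (0.80), a kinetochore motor, followed. Spdl1 (0.79), Rhno1 (0.79) and Cdkn3 (0.78), a phosphatase of Cdk2, completed the 8. Cenpe fell by 0.74 in Mdc1-/-, 0.53 in Scid, 0.43 in H2ax-/- and 0.33 in 53bp1-/- lines.

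Among partners of the kinases more genes fell. Of 11 measured Aurora and Polo partners 9 fell in the mean response (7.86% of all genes) and none rose, with a median change of -0.16. Mdc1-/- lines had 7 that fell (2.52% of all genes) and Atm-/- lines 0 (0.809%). None fell in Mre11A/A lines, where no gene of the 12363 did. Nek2, a centrosome kinase, fell by 0.32 in the mean response (adjusted p = 1.38e-07) and was called in 5 genotypes, in WT by 0.31 (adjusted p = 0.0486). Kif20a fell by 0.27, Prc1, which bundles spindle microtubules, by 0.18 and Plk4, the kinase of centriole duplication, by 0.15. Of 15 spindle checkpoint and APC/C genes 8 fell and none rose (median -0.10), among them Ttk, the checkpoint kinase Mps1, by 0.23, and Fbxo5, an inhibitor of the APC/C, by 0.22. Both also fell in WT lines, by 0.31 and 0.37.

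Of 11 genes listed as direct or indirect regulators of Cdk1 4 fell: Bora by 0.18, Cks2 by 0.16, Cdc25a by 0.12 and Ccna2 by 0.12 (median of the 11 genes -0.02). Wee1, the kinase opposing Cdc25, was at -0.07 in the mean response and not called (adjusted p = 0.191), and H2ax-/- was the 1 genotype in which it was called lower. Of 12 S phase genes none fell in the mean response and 1, Rrm2, a ribonucleotide reductase subunit, rose by 0.10, with a median of -0.03. Against these lists 7.86% of all genes fell and 6.38% rose in the mean response. In WT lines alone the S phase gene Ccne2 fell, by 0.33 (limma adjusted p = 0.0236, where 1.8% of all genes fell).

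**Figure D4:**
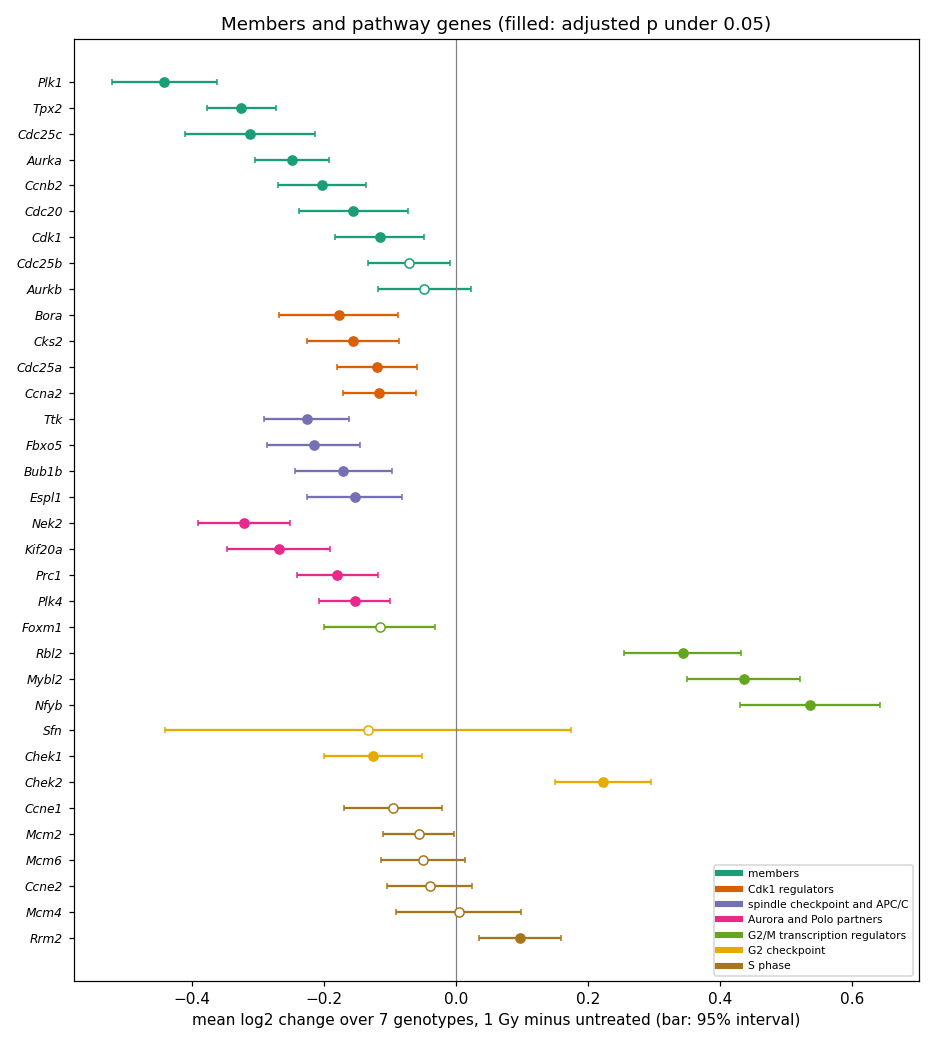
Mean log2 change over the 7 genotypes (x axis, irradiated minus untreated, with 95% intervals) of the 9 members and of genes named from the other lists, with genes down the y axis and colours for lists; filled points passed an adjusted p under 0.05. Members lie between -0.44 for Plk1 and -0.05 for Aurkb, and Mybl2, Nfyb and Rbl2 lie to the right of 0.

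Among transcription regulators that act at promoters of this class, called genes were higher. Of 11 G2/M transcription regulators none fell and 3 rose in the mean response: Nfyb, a subunit of the factor that binds CCAAT, by a log2 change of 0.54 (adjusted p = 3.59e-08), Mybl2, a transcription factor of the MuvB complex, by 0.44 (2.79e-08), and Rbl2, the p130 pocket protein, by 0.34 (2.04e-06). Mybl2 rose in 5 genotypes, with 0.78 in Mdc1-/- and 0.65 in WT lines. Foxm1, a transcription factor of G2/M genes, was at -0.12 and not called (adjusted p = 0.0619). The Cdkn1a response was lower in Atm-/- than in WT lines (difference -1.43, adjusted p = 0.00514). The Nfyb response was lower in Atm-/- than in WT lines by 0.82 (difference -0.82, adjusted p = 0.0275). Of 6 G2 checkpoint genes Cdkn1a and Chek2 rose and Chek1, the kinase that phosphorylates Cdc25 proteins, fell by 0.13; the Chek1 response was higher in Atm-/- than in WT lines (difference 0.55, adjusted p = 0.0335). That of Ccne2 (0.50) and Mcm4 (0.68), both of S phase, was also higher in Atm-/- than in WT lines. Ccne2 changes of single lines ran from -0.44 to -0.23 in WT and from 0.07 to 0.33 in Atm-/- lines. For Mcm4 they ran from -0.46 to -0.22 in WT and from 0.21 to 0.50 in Atm-/- lines.

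Before radiation no difference between genotypes was called for 8 of the 9 members. Cdc25b, the phosphatase that starts Cdk1 activation at the centrosome, was the exception (moderated F test over untreated arrays, adjusted p = 0.000611, against 12.3% of all genes called). A call for 1 of 9 members does not exceed that share. Untreated H2ax-/- lines read 1578, 1811 and 1733 and untreated Mdc1-/- lines 1292, 1777 and 1813, against 733, 830 and 821 in untreated WT lines. Neither mutant overlapped WT. The difference was 1.09 on the log2 scale for H2ax-/- (95% interval 0.73 to 1.45, adjusted p = 0.00162, 3.14% of all genes called) and 1.01 for Mdc1-/- (0.65 to 1.36, adjusted p = 0.00254, 4.22% called), a level 2.13 and 2.01 times that of WT.

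Other mutants had untreated Cdc25b above WT without a call. Atm-/- lines read 1009, 1552 and 1568 (difference 0.75, adjusted p = 0.175), Mre11A/A lines 1132, 1417 and 1238 (0.65, adjusted p = 0.0578) and 53bp1-/- lines 1090, 1288 and 1288 (0.61, adjusted p = 0.0713), none overlapping WT. These 3 differences were called when all 42 arrays were fitted with the line as a random block (adjusted p = 0.0252, 0.0122 and 0.020). That fit called 0.154%, 3.03% and 3.51% of all genes in these comparisons, where the fit of untreated arrays called 0.0162%, 1.97% and 2.2%. Scid lines read 719, 658 and 904 and overlapped WT (-0.07, 95% interval -0.43 to 0.29). After radiation the mean Cdc25b signals were 1508 ± 129 in H2ax-/-, 1529 ± 253 in Mdc1-/-, 684 ± 73.5 in Scid and 871 ± 127 in WT lines (SD, n = 3).

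**Figure D5:**
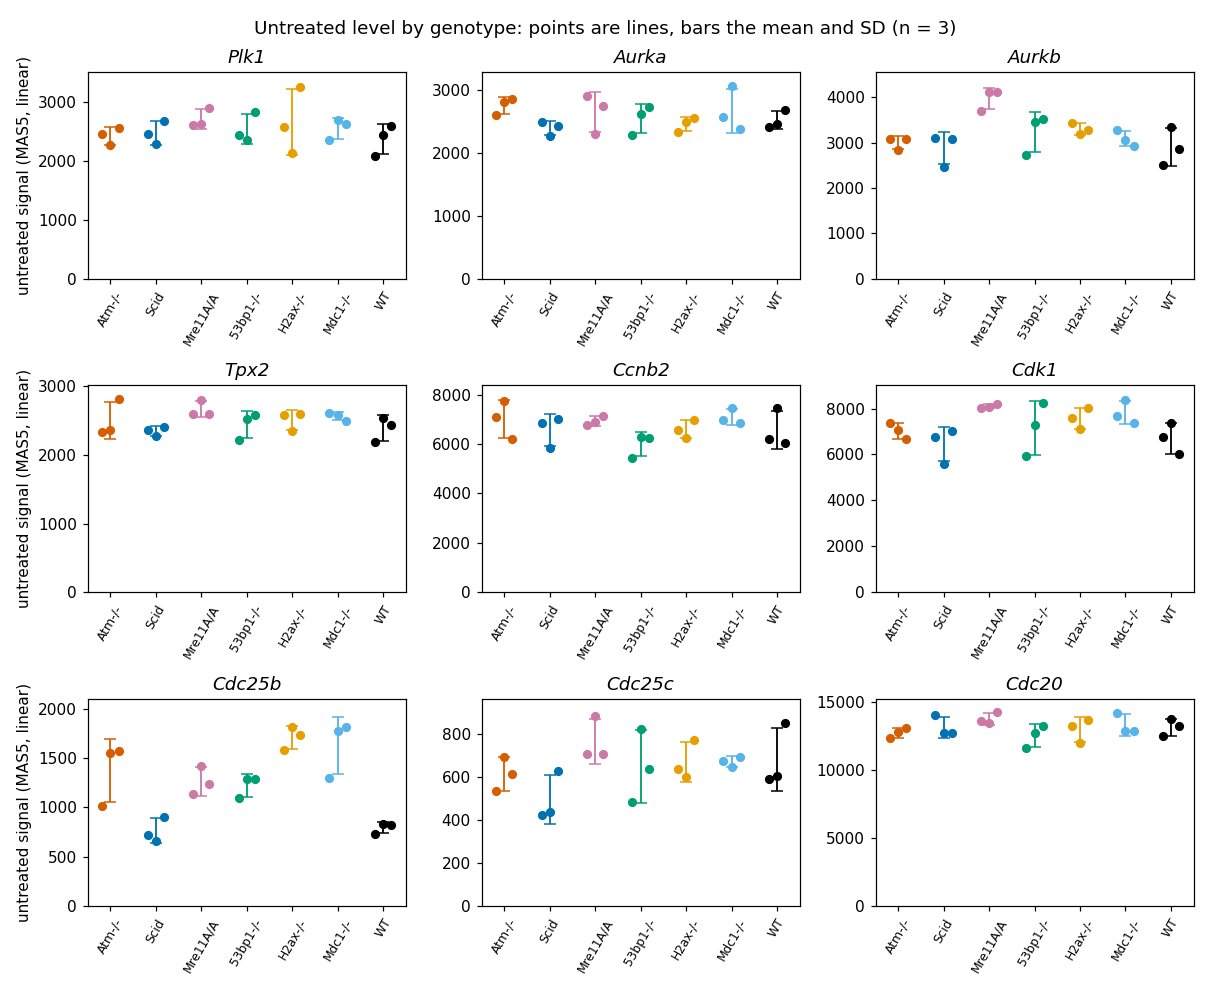
Untreated signal (y axis, linear, from 0) of the 9 genes by genotype (x axis), with a point for each line and a bar for the mean and SD of 3 lines. For Cdc25b all H2ax-/- and Mdc1-/- lines lie at 1292 or more, and all WT lines at 830 or less.

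The related phosphatase Cdc25a, which acts at both S phase and mitotic entry, was called lower before radiation in 3 mutants. Untreated Cdc25a signals were 1386 to 2051 in H2ax-/-, 1600 to 1789 in Mdc1-/- and 1606 to 2241 in 53bp1-/- lines, against 2959 to 3414 in WT lines. The differences from WT of -0.89, -0.90 and -0.74 were called (adjusted p = 0.00347, 0.00264 and 0.0156). Scid lines (2049 to 2613) and Mre11A/A lines (1915 to 2440) also lay wholly below WT, with uncalled differences of -0.44 (adjusted p = 0.263) and -0.58 (adjusted p = 0.0647). Atm-/- lines overlapped WT, at -0.06 and uncalled. Both sets of comparisons share the untreated WT arrays, and no test compared them with each other.

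Other listed genes were also called before radiation. Ube2c, the ubiquitin-conjugating enzyme of the APC/C, was higher than in WT by 0.56 in Mre11A/A (adjusted p = 0.00821), 0.53 in Mdc1-/- (0.0084) and 0.44 in H2ax-/- lines (0.0309). Its partner Ube2s was lower in H2ax-/- lines (-0.40, adjusted p = 0.0442). Pttg1, the securin that restrains separase, was lower in 53bp1-/- lines (-1.39, adjusted p = 0.0291) and Kif20a in Scid lines (-1.01, adjusted p = 0.00952). In Mdc1-/- lines Chek2 (0.43), the separase Espl1 (0.39) and the pre-B marker Cd79a (0.84) were higher and Fbxo5 (-0.54) lower than in WT, with adjusted p of 0.0401 or less. Lin52, a subunit of the MuvB complex, was lower in Mre11A/A lines (-0.94, adjusted p = 0.0365).

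Aurkb stood nearest to a call among the other members. Untreated Mre11A/A lines read 3696, 4116 and 4107 against 2510, 3350 and 2863 in WT lines, without overlap, a difference of 0.46 (95% interval 0.21 to 0.71, adjusted p = 0.0568). It was called when every kept probe set was tested (adjusted p = 0.0424), with the second probe set called instead in Mdc1-/- lines. For Plk1 the untreated means lay between 2368 ± 257 in WT and 2705 ± 165 in Mre11A/A lines (SD, n = 3), and for Tpx2 between 2348 ± 67.1 in Scid and 2665 ± 115 in Mre11A/A lines. Means of Aurka ran from 2399 in Scid to 2758 in Atm-/- lines. The F tests of untreated levels gave adjusted p of 0.851, 0.648 and 0.692 for Plk1, Tpx2 and Aurka.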

How the data were processed

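The authors deposited 1 table of linear intensities, computed with the MAS5 algorithm, as the submitters' processing notes name it; signals average about 500 per array after trimming 2% at each end. RNA (biotin label, one-cycle protocol) and groups are per the labels. Signals were taken as log2(signal + 16), which understates changes of dim probe sets. Of 45101 probe sets, 64 were controls, 34945 had 1 symbol in the platform annotation, 932 several and 9160 were unnamed here. A probe set was kept if above its array's median on 3 arrays or more (28260, of which 23245 with 1 symbol). The brightest kept set stood for each of 12363 genes. Sets with x, s or a in their name may cross-hybridise. Among the members, x sets stood for Aurkb, Cdc20 and Cdc25c, and an a set for Cdc25b.

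R 4.3.3 and limma 3.58.1 fitted responses with a term for each line and untreated levels on the 21 untreated arrays (14 residual degrees of freedom each), with trended variances, two-sided tests, an adjusted p threshold of 0.05 and F tests with 6 numerator degrees of freedom. The line as block was chosen because the design compares treatments within each cell line, and it was chosen with the counts of both fits known. Replicate numbers were taken to pair arrays within a genotype. Deviations from group means correlated at 0.358 to 0.647 in 21 same-numbered pairs, against -0.447 to -0.0546 in 42 others. Centring each group on its mean pushes the others below 0 when same-numbered pairs are positive. The negative values are therefore no separate evidence for the pairing. Members, lists and tests were chosen with earlier results of these data known. Genes named were all members, up to 4 per list by p in the mean response, listed genes called in a mutant against WT (responses or untreated levels), Cdkn1a and the 8 genes most like the members' mean. Scripts were tested on simulated data. Promoters come from RefSeq. Plots used Python 3.11.15 and matplotlib 3.10.9. The number of arrays limits the precision. Alternatives were other pseudocounts (1 and 64), normalizations, filters, fits without the block, and leaving out each line.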

Additional observations from a re-analysis of the deposited data

Results flagged for a closer look

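The radiation response of Aurka differed among the 7 genotypes (moderated F test in limma, adjusted p = 0.0135), with mean log2 changes between -0.51 in Mdc1-/- and -0.03 in Atm-/- lines. The response of Plk1 did so too (adjusted p = 0.0249), between -0.77 in H2ax-/- and -0.07 in Mre11A/A lines. Between pairs of mutants, the Plk1 response differed in H2ax-/- minus Mre11A/A lines by -0.70, the 1 called member difference of 15 pairs; this comparison was added after the data were seen, and the call was lost in 13 of 24 alternatives. Each was picked out by a test of the difference itself. No group had 4 or more lines, so single outlying samples were not looked for.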

How the results depend on the processing

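Over all alternatives 5766 values of members were recomputed. Of these 5674 kept their side of the threshold, 68 lost a call, 24 gained one and 0 called values changed sign. The 5674 include 140 values, uncalled in both settings, that changed sign. Counts of called members stayed within 1.5 times the main count except as follows. Without a replicate block the counts were 1 in Scid (5 with it), 0 in 53bp1-/- (2), 2 in H2ax-/- (4), 3 in Mdc1-/- (5), 0 in WT lines (1), 0 in the F test of responses (2) and 0 between mutants (1), while all called genes in the first 6 were 11, 4, 11, 79, 12 and 2 (331, 240, 245, 704, 469 and 118 with it). Quantile normalization gave 0 in WT lines and 3 between mutants; centring on the 75th percentile gave 3 in Scid lines, 1 in the F test, 0 between mutants and 1 for untreated Mre11A/A against WT, where testing every kept probe set gave 2 (0 in the main test). All 42 arrays with the line as a random block gave 1 each for untreated Atm-/-, Mre11A/A and 53bp1-/- against WT (0 in the main test; 19, 375 and 434 of all genes). Without both lines with a bright irradiated array WT had 0. On leaving out 1 line at a time, counts ranged between 3 and 5 in Scid, 0 and 4 in 53bp1-/-, 3 and 4 in H2ax-/-, 3 and 5 in Mdc1-/-, 0 and 1 in WT lines, 1 and 2 in the F test, 0 and 4 between mutants, 0 and 1 for untreated Atm-/-, Mre11A/A and 53bp1-/- against WT and 1 and 2 in the untreated F test; the mean response had 7 throughout. All called genes in those fits ranged between 67 and 386 in Scid, 80 and 276 in 53bp1-/-, 50 and 292 in H2ax-/-, 312 and 861 in Mdc1-/-, 115 and 543 in WT lines and 63 and 210 in the F test. The calls of Plk1, Aurka and Tpx2 in Mdc1-/-, of Plk1 and Tpx2 in H2ax-/- and of Tpx2 in Scid lines held in all 29 alternatives. Causes of the differences were not tested. The 3 lines of each genotype limit the precision.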
